A study of Homo sapiens with 4 samples.

Results

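The genes described here make cholesterol, bring it into the cell, move it between membranes, store it as ester or control these steps. The 32 genes were chosen by name, from acetyl-CoA through the mevalonate and sterol steps to SREBP2 control, uptake, efflux and esterification, and 30 of them were measured, of 19775 genes in all. FDFT1 and CYP51A1 had no probe set with a single gene symbol and were not analysed here. Each gene was read by its brightest probe set over the 4 arrays, and 14 genes had 1 probe set and 16 had several. No measured gene was dim in either group, meaning below the 25th percentile of all probe sets on both arrays of the group.

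The arrays were Affymetrix 3′ expression arrays of HuH7, a human hepatocellular carcinoma line, grown in medium with fetal bovine serum. KDM6B knockout cells (KO) gave 2 arrays and KDM6B wild-type HuH7 cells (WT) gave 2. Knockout cells had received a guide vector against KDM6B, a gene for an H3K27 demethylase, and a Cas9 vector, were selected with G418 and were subcloned by limiting dilution. Whether the KO samples are different subclones, whether WT cells received a vector and whether the samples of a group were separate cultures is not stated in the labels, so the spread behind each p-value may be only technical. Loss of KDM6B and differences between a subclone and the parental population cannot be told apart in this design.

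Cells make cholesterol from acetyl-CoA through HMG-CoA, mevalonate, isoprenoid pyrophosphates, squalene and lanosterol, and a further chain of enzymes turns lanosterol into cholesterol. The transcription factor SREBP2, held in the endoplasmic reticulum with SCAP and INSIG proteins when sterol is plentiful, is cut and enters the nucleus when sterol is scarce, where it raises transcription of most of these genes together with NF-Y, which binds CCAAT, and Sp1, which binds GC boxes. In the liver the pathway supplies membranes, lipoproteins and bile acids.

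Values are log2 expression from RMA, and differences are KO minus WT on that scale. KDM6B itself read 7.95 and 8.14 in KO arrays and 8.46 and 8.27 in WT arrays, which differed by -0.32 (SE 0.12, adjusted p = 0.235, not called), and its 5 probe sets were all lower without any being called. Cas9 cuts can leave mRNA levels as they were, so this does not check the labels. Hepatocyte markers were bright in every array, among them AFP at 13.70 ± 0.01 in KO and 13.76 ± 0.06 in WT (SD, n = 2 each), and 1 of 7, FGB, was called lower. Markers of other cell types included 2 called genes, both lower in KO. The summed linear signal of 4 leukocyte markers was 9.31 to 9.93 on the log2 scale in KO and 10.71 to 11.33 in WT, with LYZ the brightest and called, and that of 5 endothelial markers was 7.19 to 7.39 in KO and 7.68 to 7.88 in WT, with PECAM1 called. Of the 4 leukocyte markers 2 were negative and 2 positive, and of the 5 endothelial markers 4 were negative and 1 positive. The sums of the other 2 lists were higher in KO, with 0 genes called. That of 5 fibroblast markers was 8.12 to 8.15 in KO and 7.89 to 8.10 in WT. That of 4 stellate cell markers was 7.23 to 7.38 in KO and 7.17 to 7.20 in WT. PTPRC, CDH5 and KDR read below the 25th percentile on all 4 arrays. The part of such signal in the cholesterol genes was not tested.

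Of the cholesterol genes that passed the test, all were lower in knockout cells, and most of them act between squalene and cholesterol. With a gene called at an adjusted p under 0.05, 9 of 30 fell, where 3.94% of all genes were called lower, and 0 rose, where 3.14% of all genes were called higher (7.07% of all genes were called in either direction). Those that fell were ACAT2, AACS, SQLE, MSMO1, HSD17B7, EBP, SC5D, DHCR7 and NPC1. All shares over all genes given here include dimmer genes, while 29 of the 30 were at or above the median brightness. A fit was also made of the 10198 genes with a group mean at or above that median. It called 1006 of them lower and 738 higher, and 10 of the 30 lower and 0 higher. The median difference of the 30 genes was -0.37, beside 0.01 over all genes. A negative difference was found in 27 of the 30, beside 9487 of all 19775 genes. At an unadjusted p under 0.05, 17 were lower, as were 11.3% of all genes, and 1, NPC2, was higher, as were 8.72%. Both KO arrays lay below both WT arrays for 22 of the 30, as they did for 23.5% of all genes, and above both for 1, as for 22.4% (23 of 30 without overlap either way, beside 45.9% of all genes).

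Most of these calls were lost when an array was left out. The 9 genes called lower became 0 without KO 1, 0 without KO 2, and 2 (ACAT2 and EBP) without either WT array, while the median difference was -0.39 without KO 1, -0.30 without KO 2, -0.41 without WT 1 and -0.37 without WT 2. Those fits had 1 array in a group, which was taken to vary as the arrays of the other group do. At an unadjusted p under 0.05, 14 of the 30 were lower without KO 1, beside 7.7% of all genes in that fit, and 12 without KO 2, beside 7.15%.

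**Figure D1:**
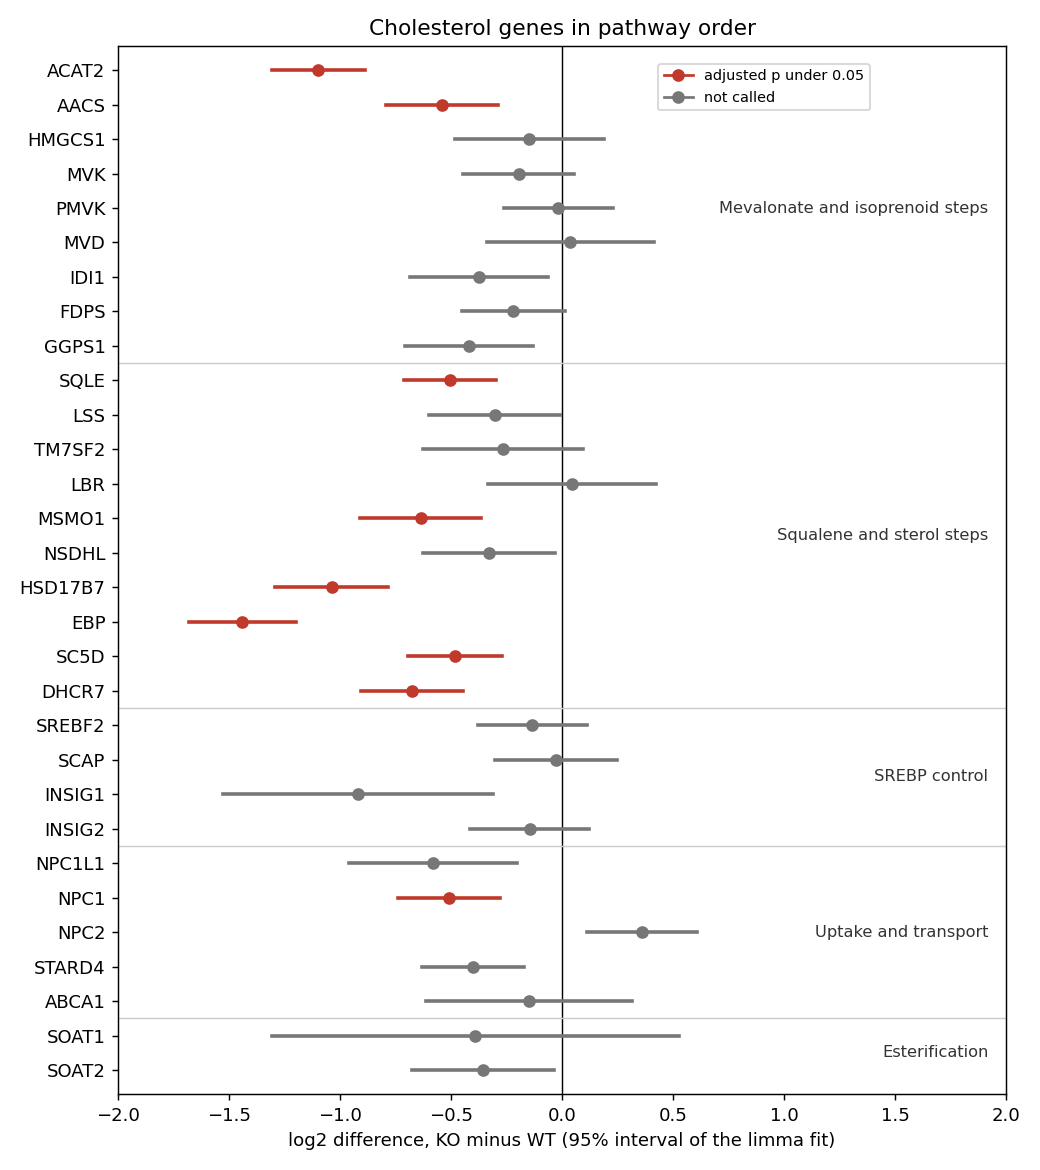
Log2 difference, KO minus WT (x axis), of the 30 measured cholesterol genes in pathway order (y axis), with points for the fitted difference and bars for its 95% interval in the limma fit over 2 KO and 2 WT arrays. The 9 called genes are all left of 0, 6 of them between squalene and cholesterol, and EBP lies farthest left at -1.44.

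Because the genes moved together in direction, their promoters were set side by side. RefSeq promoter windows (GRCh38.p14) were found for 27 of the 30, and the 250 bases before the start were searched on both strands for CCAAT, for the GC box GGGCGG and for the sterol regulatory element TCACNCCAC. In these 27 windows a match overlapped only other matches of its own motif. The sequences shown are those of 4 genes that fell, EBP, DHCR7, MSMO1 and NPC1, and of SREBF2, the only one of the 27 with the sterol regulatory element. Each runs 5′ to 3′ on the gene's strand and ends at the base before the start, and capitals mark the motifs found (ATTGG and CCGCCC are CCAAT and GGGCGG on the other strand).
EBP (chrX:48521558-48521807, plus strand): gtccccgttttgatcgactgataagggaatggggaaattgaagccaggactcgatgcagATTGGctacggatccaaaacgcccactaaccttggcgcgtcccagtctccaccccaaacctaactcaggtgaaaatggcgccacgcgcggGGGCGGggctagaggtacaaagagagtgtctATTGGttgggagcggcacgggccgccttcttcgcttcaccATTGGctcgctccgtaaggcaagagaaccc
DHCR7 (chr11:71448394-71448643, minus strand): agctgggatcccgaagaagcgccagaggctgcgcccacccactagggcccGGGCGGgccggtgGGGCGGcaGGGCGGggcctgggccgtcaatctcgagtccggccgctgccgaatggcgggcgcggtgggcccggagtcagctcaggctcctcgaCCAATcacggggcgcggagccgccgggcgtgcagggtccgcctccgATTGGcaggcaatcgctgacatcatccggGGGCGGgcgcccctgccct
MSMO1 (chr4:165327419-165327668, plus strand): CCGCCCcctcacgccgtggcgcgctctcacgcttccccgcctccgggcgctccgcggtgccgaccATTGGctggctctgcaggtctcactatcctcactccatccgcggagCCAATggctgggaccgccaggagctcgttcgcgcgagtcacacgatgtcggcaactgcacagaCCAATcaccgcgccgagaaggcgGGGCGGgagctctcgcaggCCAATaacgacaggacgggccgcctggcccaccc
NPC1 (chr18:23586507-23586756, minus strand): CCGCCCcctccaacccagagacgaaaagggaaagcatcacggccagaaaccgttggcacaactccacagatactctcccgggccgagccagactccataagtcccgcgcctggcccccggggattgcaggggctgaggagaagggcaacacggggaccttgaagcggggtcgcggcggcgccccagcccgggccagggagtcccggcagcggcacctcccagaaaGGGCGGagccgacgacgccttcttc
SREBF2 (chr22:41832855-41833104, plus strand): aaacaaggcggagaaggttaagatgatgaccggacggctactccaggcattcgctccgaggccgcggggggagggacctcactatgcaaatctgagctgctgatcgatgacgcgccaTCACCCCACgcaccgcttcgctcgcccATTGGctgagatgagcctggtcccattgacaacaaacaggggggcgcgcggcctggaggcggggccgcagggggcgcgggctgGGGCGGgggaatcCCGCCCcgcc

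EBP has 3 CCAAT matches in this window, MSMO1 has 4, DHCR7 has 2 and NPC1 has none. Over the 27 promoters CCAAT was found in 18 (66.7%), beside 34.1% of the 15384 promoters of measured genes, and the GC box in 23 (85.2%), beside 56.3%. Of the 7 called genes with a window, 5 held CCAAT, and all 7 held a GC box. The sterol regulatory element was found in 1 of 27 and in 0.832% of all promoters. SREBF2, whose window holds it 133 to 125 bases before the start beside 1 CCAAT, was not among the genes called. A match is only a match of letters, and the absence of one says that these letters are not in this window.

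In the steps from acetyl-CoA to the isoprenoids, 2 of 9 genes fell, 7 did not pass and 0 rose, with a median of -0.22. ACAT2, the cytosolic thiolase that joins acetyl-CoA units, read 10.32 and 10.40 in KO arrays, against 11.50 and 11.42 in WT arrays. Both KO arrays were below both WT arrays by about 1 unit, and ACAT2 fell 2.14-fold (difference -1.10, SE 0.08, adjusted p = 0.00397). AACS, which makes acetoacetyl-CoA from the ketone body acetoacetate, read 7.52 and 7.54 in KO and 8.10 and 8.04 in WT. The KO values were close together and lower, and fell by 0.54 (SE 0.10, adjusted p = 0.0386).

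The other 7 genes of these steps, which carry HMG-CoA synthase through to geranylgeranyl pyrophosphate, had differences of -0.42 to 0.04 and none was called, although 2 of the 7 were lower at an unadjusted p under 0.05. GGPS1, which makes geranylgeranyl pyrophosphate, read 9.53 and 9.34 in KO and 9.76 and 9.95 in WT, without overlap (-0.42, SE 0.12, adjusted p = 0.106). IDI1, the isomerase of isopentenyl pyrophosphate, read 11.14 and 10.90 in KO and 11.28 and 11.51 in WT (-0.37, SE 0.13, adjusted p = 0.168). FDPS, farnesyl pyrophosphate synthase, read 11.32 and 11.38 in KO and 11.65 and 11.48 in WT (-0.22, 95% interval -0.45 to 0.01). In each of these 3 genes the KO arrays lay below the WT arrays, by less than the test needed.

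HMGCS1, the HMG-CoA synthase of this pathway, is a well known SREBP2 target. It read 10.42 and 10.66 in KO and 10.83 and 10.54 in WT, so the groups overlapped (difference -0.15, 95% interval -0.48 to 0.19), and its dimmer probe set gave -0.53 without a call. The kinases MVK and PMVK had differences of -0.20 and -0.02, with 95% intervals of -0.45 to 0.05 and -0.26 to 0.23. The decarboxylase gene MVD had a difference of 0.04 (-0.34 to 0.41). For PMVK and MVD the KO and WT arrays overlapped, and these intervals leave out a 2-fold change.

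From squalene to cholesterol, 6 of 10 genes fell, 4 did not pass and 0 rose, with a median of -0.49. Among the 8 genes that act after lanosterol, 5 fell and the median was -0.56. The 7 genes between HMG-CoA synthase and geranylgeranyl pyrophosphate had 0 called and a median of -0.20. These 7 leave out ACAT2 and AACS, the 2 called genes of their step, so 0 called was fixed by that choice. All 9 genes of the step had 2 called and a median of -0.22. The difference between these stretches of the pathway was not tested.

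EBP, the sterol isomerase that shifts a double bond in the ring, had the largest change of the 30 by the brightest probe set. It read 10.97 and 10.80 in KO arrays, against 12.27 and 12.38 in WT arrays, a 2.71-fold fall (-1.44, SE 0.10, adjusted p = 0.00277). With the mean of all probe sets of a gene, EBP was at -1.03, behind ACAT2 at -1.10 and HSD17B7 at -1.04. HSD17B7, the keto-reductase that works with the demethylation complex, read 8.59 and 8.72 in KO and 9.76 and 9.63 in WT. It fell 2.05-fold (-1.04, SE 0.10, adjusted p = 0.00717), read by a single probe set whose suffix marks possible cross-hybridisation, and near-identical pseudogenes of HSD17B7 exist. In both genes the gap between groups was about 1 unit or more, with replicates within 0.2 of each other.

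DHCR7, the reductase that makes cholesterol in the last step of one branch, read 9.37 and 9.51 in KO and 10.11 and 10.12 in WT, and fell by 0.68 (SE 0.09, adjusted p = 0.0171). MSMO1, the sterol methyl oxidase that starts removal of methyl groups, read 11.30 and 11.53 in KO and 12.12 and 11.99 in WT, and fell by 0.64 (SE 0.11, adjusted p = 0.0300). SQLE, squalene epoxidase, a rate-controlling enzyme of the sterol part, read 9.99 and 9.94 in KO and 10.49 and 10.44 in WT, and fell by 0.50 (SE 0.08, adjusted p = 0.0265). SC5D, the desaturase just before DHCR7, read 9.71 and 9.70 in KO and 10.23 and 10.15 in WT, and fell by 0.48 (SE 0.08, adjusted p = 0.0326). All 4 were lower in both KO arrays than in either WT array, at 1.40-fold to 1.60-fold.

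The 4 genes of this stretch that did not pass were NSDHL, LSS, TM7SF2 and LBR. NSDHL, the decarboxylating dehydrogenase that follows MSMO1, read 8.09 and 8.27 in KO and 8.60 and 8.43 in WT (-0.33, SE 0.12, adjusted p = 0.203). LSS, which closes the rings to give lanosterol, read 9.20 and 9.14 in KO and 9.34 and 9.61 in WT (-0.30, SE 0.12, adjusted p = 0.232). TM7SF2 read 8.16 and 7.87 in KO and 8.17 and 8.39 in WT (-0.27, SE 0.14, adjusted p = 0.408). In these 3 the KO arrays were just below the WT arrays. LBR, the lamin B receptor, whose sterol reductase activity overlaps that of TM7SF2, had a difference of 0.04 with overlapping groups (95% interval -0.34 to 0.42).

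**Figure D2:**
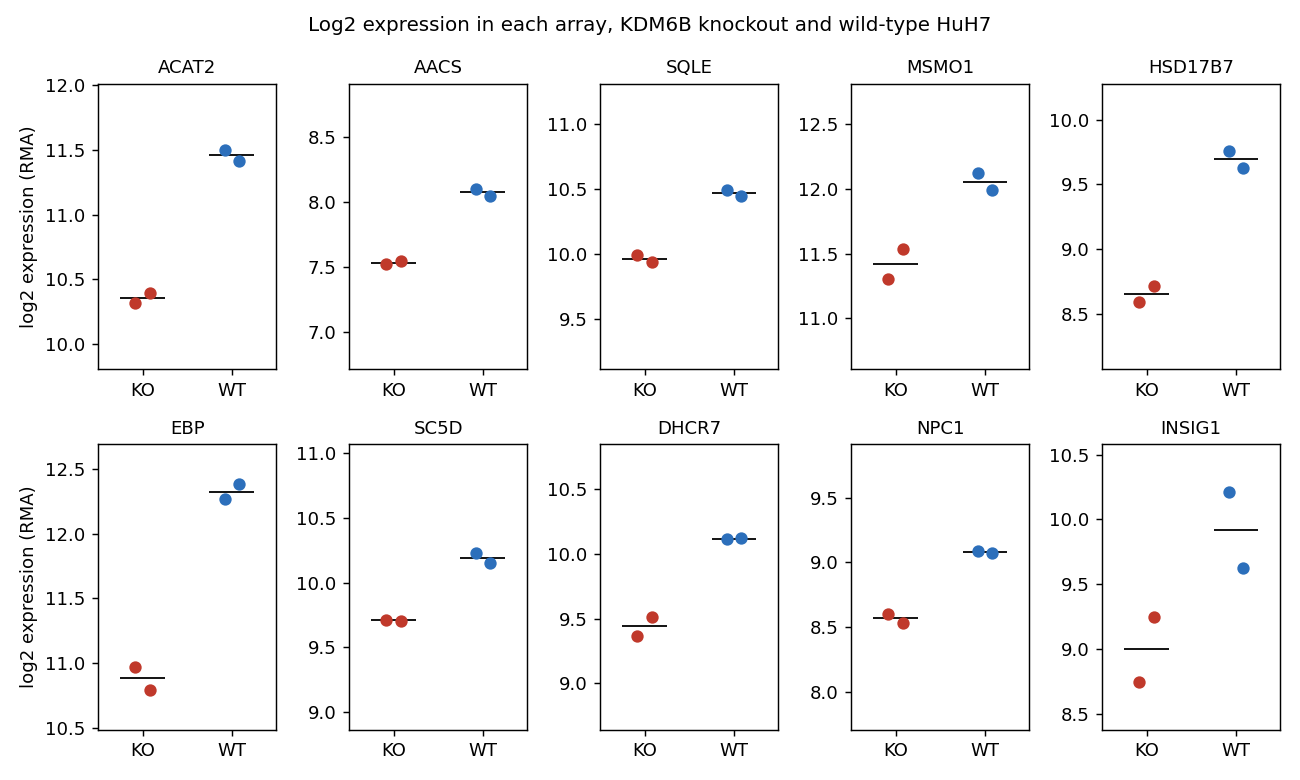
Log2 expression (y axis, each panel spanning the same range of 2.2 units) of the 9 called cholesterol genes and INSIG1 in each array, KO in red and WT in blue, with a line at the mean of 2 arrays. KO points lie below WT points in all 10 panels, and INSIG1 shows the widest spread within groups.

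Among the genes that control SREBP2, 0 of 4 were called and 1, INSIG1, was lower at an unadjusted p under 0.05. SREBF2, which encodes SREBP2, averaged 7.88 ± 0.01 in KO and 8.01 ± 0.02 in WT (SD, n = 2 each; -0.14, 95% interval -0.38 to 0.11). SCAP, the escort protein that carries SREBPs to the Golgi, had a difference of -0.03 (-0.30 to 0.25), and INSIG2, which retains SCAP, one of -0.15 (-0.41 to 0.12). The mRNA levels do not show how much SREBP2 was cut.

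INSIG1, both a retainer of SCAP and a target of SREBP2, read 8.75 and 9.25 in KO and 10.21 and 9.63 in WT. The groups did not overlap, but replicates were 0.5 or more apart and the difference of -0.92 (SE 0.24, adjusted p = 0.0965) did not pass. Its other probe sets gave -0.89 (SE 0.10, adjusted p = 0.0140) and -1.01 (SE 0.14, adjusted p = 0.0238) in a fit over all 41091 probe sets, in which 2.18% were called lower. All 3 probe sets of INSIG1 thus gave a difference of -1.01 to -0.89, with a call on the 2 dimmer ones.

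In uptake and transport, 1 of 5 genes fell, 4 did not pass and 0 rose. NPC1, the membrane protein that exports cholesterol from late endosomes and lysosomes, read 8.61 and 8.53 in KO and 9.09 and 9.07 in WT. It fell by 0.51 (SE 0.09, adjusted p = 0.0348), although the same probe set gave an adjusted p of 0.0503 in the fit over all probe sets. NPC2, its soluble partner in the lysosome, differed in the other direction, with 11.97 and 11.81 in KO and 11.45 and 11.61 in WT (0.36, SE 0.10, adjusted p = 0.109). NPC2 was the only cholesterol gene with both KO arrays above both WT arrays.

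STARD4, a cytosolic sterol carrier that is also an SREBP2 target, read 8.72 and 8.80 in KO and 9.19 and 9.13 in WT (-0.40, SE 0.09, adjusted p = 0.0669). NPC1L1, the sterol transporter of intestine and of human liver, read 5.95 and 5.67 in KO and 6.40 and 6.38 in WT (-0.58, SE 0.15, adjusted p = 0.0937), and its 2 dimmer probe sets were higher in KO without a call. Neither gene had overlapping groups. ABCA1, the efflux pump that loads cholesterol onto apolipoprotein A-I, had overlapping groups and a difference of -0.15 (95% interval -0.61 to 0.32).

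Neither esterification gene was called, and 1, SOAT2, was lower at an unadjusted p under 0.05. SOAT2, the acyltransferase of hepatocytes and enterocytes, read 8.84 and 8.59 in KO and 8.98 and 9.17 in WT (-0.36, SE 0.13, adjusted p = 0.200). SOAT1, its widely expressed relative, read 7.96 and 8.66 in KO and 9.19 and 8.21 in WT, so arrays of 1 group differed more than the groups did (-0.39, SE 0.37). A SOAT1 probe set slightly dimmer than that one read -0.58 (SE 0.10, adjusted p = 0.0479 over all probe sets), with tighter replicates.

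Over all 63 probe sets of the 30 genes, 53 were lower in KO. Of the 63, 13 were called lower, beside 2.18% of all 41091 probe sets, and 0 higher. EBP was called on 3 of 4 probe sets, at -1.44, -1.46 and -0.94, the fourth and dimmest reading -0.27. SQLE was called on 2 of 4, at -0.50 and -0.76, with all 4 negative. The second DHCR7 probe set gave -0.35 (adjusted p = 0.170). The second SC5D probe set was dimmer and gave -0.14, and NPC1's 3 others were dimmer and gave -0.19 to 0.32. ACAT2, AACS, MSMO1 and HSD17B7 had a single probe set, and that of AACS was not called in the fit over all probe sets (adjusted p = 0.0538).

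Some of these genes sit among neighbours that were also lower. For each gene the 10 expressed genes before it and the 10 after it on the chromosome were taken, expressed meaning at or above the median brightness of all genes. EBP on the X chromosome had the lowest neighbourhood, with a median of -0.55 and 9 of 20 called lower. The 10 genes before EBP had a median of -0.08 and the 10 after it a median of -1.13. FTSJ1, the nearest expressed gene before EBP, was at -1.59, and TBC1D25, the nearest after it, at -0.89. EBP at -1.44 thus had a lowered neighbour on each side. HSD17B7 on chromosome 1 had a neighbour median of -0.37, with 19 of 20 lower, 1 called lower and 1, MGST3 at 1.34, called higher. ACAT2 on chromosome 6 had -0.29, with 18 of 20 lower and 5 called lower. Over all genes, dimmer ones included, 3.94% were called lower and 9487 of 19775 had a negative difference.

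For the other 6 called genes the neighbour medians were between -0.15 (MSMO1) and 0.14 (NPC1). MSMO1, at -0.64, also had lopsided neighbours, with a median of -0.56 for the 10 genes before it and 0.04 for the 10 after. GK3, the nearest expressed gene before MSMO1, was at -0.56, and PALLD, the nearest after it, at -1.24. Of the 20 neighbours, 3 were called lower and 1 higher. NPC2 and ABCA1, which were not called, lay among neighbours with medians of -0.36 and -0.37. A step chosen after the data were seen left out the 4 genes whose neighbours had a median of -0.3 or lower. These were EBP, HSD17B7, NPC2 and ABCA1. Of the other 26 genes, 7 fell and the median was -0.37, as for all 30. EBP and HSD17B7 lay below the median of the 30, and NPC2 and ABCA1 above it. Leaving these out therefore could not move the median, which does not show whether it depends on the neighbourhoods. That cutoff kept ACAT2, with a neighbour median of -0.29, and MSMO1, so it did not set all lowered neighbourhoods aside. The part of these neighbourhoods in the differences of the genes was not tested.

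Other genes of sterol biology were read from 7 lists. In the non-sterol isoprenoid branch, which makes dolichol, ubiquinone side chains and protein prenyl groups, 3 of 14 fell, 11 did not pass and 0 rose, with a median of -0.23. COQ2, which attaches the ubiquinone side chain, fell by 1.10 (KO 7.79 and 7.75, WT 8.98 and 8.77, adjusted p = 0.00802), with its second probe set positive. PDSS1, which makes that chain, fell by 0.51, with its second probe set positive, and RABGGTB, a subunit of the Rab prenyltransferase, fell by 0.46. Neither PDSS1 nor RABGGTB was called in the fit over all probe sets.

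Among 11 fatty acid genes of the SREBP program, 0 were called and the median was -0.33. At an unadjusted p under 0.05, 7 were lower, beside 11.3% of all genes, and 1 higher, beside 8.72%. The brightest probe sets of the 11 ran from -0.74 for LPIN1, a phosphatidate phosphatase, to 0.34 for ELOVL5, a fatty acid elongase. In the fit over all probe sets, SCD, the stearoyl-CoA desaturase, was lower on all 4 of its probe sets with 3 called, and LPIN1 on all 3 with 1 called. Among 7 measured genes of SREBP processing and sterol sensing, 0 were called (2 lower and 3 higher at an unadjusted p under 0.05) and the median was 0.03. Among 8 lipoprotein receptors and their regulators, 0 were called (2 lower and 0 higher unadjusted), with LRP8 at -0.80 (adjusted p = 0.0525) and VLDLR at -0.51 (adjusted p = 0.0513) just outside. LRP8 was lower on all 3 of its probe sets, with 1 called over all probe sets.

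Of 6 efflux and LXR genes, ABCG1, a sterol efflux transporter, fell by 1.08 (KO 4.88 and 5.07, WT 6.18 and 5.92, adjusted p = 0.0221) and was negative on all 4 probe sets. Of 9 oxysterol and bile acid enzymes, AKR1D1, the steroid reductase of bile acid synthesis, rose by 1.66 (KO 6.97 and 7.57, WT 5.92 and 5.29, adjusted p = 0.0308). Of 15 genes of intracellular sterol transfer, 3 rose, 1 fell and 11 did not pass. The risers were CAV1 (caveolin) by 1.09, and the oxysterol-binding protein relatives OSBPL1A by 0.79 and OSBPL10 by 0.62, although OSBPL10 was not called on any of its 5 probe sets in the fit over all probe sets. LIPA, the lysosomal lipase that frees cholesterol from ester, fell by 1.00, with its second probe set positive. These lists moved in both directions, with medians of -0.12, -0.07 and 0.00.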

How the data were processed

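The deposited values are log2 expression per probe set, made with RMA and the affy package per the submitters' processing notes; tool versions, and which arrays were normalized together, are not stated there. RMA evens out distributions, so a shift shared by most genes would be lost. Of 54613 probe sets, 41091 had 1 gene symbol in the platform annotation, 1801 several and 11721 none; only the first kind was used. Of these, 41037 matched RefSeq by Entrez identifier.

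Knockout was compared with wild type by limma 3.58.1 in R 4.3.3 (lmFit, eBayes with an intensity trend; 2 residual degrees of freedom, 3.62 from the prior), two-sided, with Benjamini-Hochberg adjustment over 19775 genes and no filter on dim genes. Exact permutation of 2 against 2 arrays gives p = 0.333 at the least and was not used. The number of arrays limits the precision. In 10 simulated sets of these genes, 33.4% of 2-fold and 92.7% of 4-fold changes were recovered, and 5.12% of calls were false. Each set had 200 changed genes and independent noise drawn from the spread of the same fit. The real arrays gave 1399 calls and replicate differences correlated at -0.55, so these shares need not hold for the real calls.

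Members and lists were chosen with earlier results of these data known. All measured cholesterol genes are named, with values per array for called genes and up to 3 others of each step with the largest differences; called genes of other lists are named up to 2 in each direction, and OSBPL10 and RABGGTB, LRP8, VLDLR, SCD, LPIN1 and ELOVL5 and the remaining uncalled members' values were added after their values were seen. Alternatives covered variance model, probe set choice, cross-hybridisation, normalization, dim genes, threshold, blocks and left-out arrays. Python 3.11.15, pandas 2.3.3, NumPy 2.4.6 and matplotlib 3.10.9 were used for tables and figures.

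Same-numbered arrays varied in opposite directions (the replicate differences correlated at -0.55 across genes), so numbers were not taken as pairs. Of the 30 cholesterol genes, 23 had replicate differences of opposite sign in KO and WT. The main fit had no block, so this crossed variation stayed in its spread.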

Additional observations from a re-analysis of the deposited data

How the results depend on the processing

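The 9 cholesterol genes called lower became 4 when probe sets with suffixes _x_at, _s_at and _a_at, taken as open to cross-hybridisation, were left out. They became 3 with no intensity trend, 3 as 2-fold differences without a test and 1 (EBP) with the number as a replicate block. Apart from the left-out arrays, the other settings except the crossed pairing gave 7 to 12. The crossed pairing (wild type 1 with knockout 2, wild type 2 with knockout 1), chosen after the data were seen, gave 17 lower and 1 higher (NPC2), against 0 higher in the other settings. Calls over all genes, 1399, became 826 without those probe sets, 783 without the trend, 2236 at an adjusted p under 0.10, 500 as 2-fold differences, 175 with the replicate block, 3662 with the crossed pairing and 37 to 192 over left-out arrays. The median of the cholesterol genes was -0.30 without those probe sets, where 23 of 30 were measured, and -0.41 to -0.30 over left-out arrays. KDM6B was called only with the crossed pairing (-0.32, adjusted p = 0.0379). No called cholesterol gene changed sign in 122 recomputed values, of which 66 kept their call and 56 lost it. Without the probe sets open to cross-hybridisation, 4 of 5 called genes still tested were called, and ACAT2, AACS, HSD17B7 and DHCR7 had no probe set of another type. With the mean of all probe sets, SC5D and NPC1 were no longer called (-0.31 and -0.11), and INSIG1 and STARD4 were. With quantile normalization repeated, AACS was not called (adjusted p = 0.0560). Some settings had fewer arrays, fewer probe sets or, for both blocks, fewer degrees of freedom. The cause of a lost call was not tested. No detection calls were used, so signal over background is not known for dim probe sets.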
